A study of Homo sapiens with 16 samples.

Results

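The vitamin D genes CYP24A1, VDR, RXRA and CYP27B1 were followed in anaplastic thyroid carcinoma cells treated with 2 inhibitors of the ERK pathway. They are 4 of the 60715 genes in the table and were taken by gene symbol, with all 16 libraries. CYP24A1 was chosen because its level fell with the dose of DEL-22379 and not with U0126 in 8505c cells, so its values in 8505c cells are given as a description, with no test. The other members are the receptor (VDR), its partner (RXRA) and the enzyme that makes the active hormone (CYP27B1). For these roles they were added, and none of them was chosen by a value of its own. Earlier results of these data were, however, known when they were chosen, so their tests are not independent of those results. RNA was measured by stranded mRNA sequencing in 8505c cells, a BRAF-mutant line, and CAL62 cells, a K-RAS-mutant line. Both were kept for 24 h in medium with 10% serum (FBS) with vehicle (DMSO), with DEL-22379 at 1 or 10 µM, or with U0126 at 10 µM, with 2 biological replicates for each of the 8 groups. DEL-22379 is an inhibitor of ERK dimerization and U0126 is an inhibitor of MEK, the kinase that activates ERK. The labels write the doses in mM and the study's methods in µM, and the latter are used here. Each driver mutation is represented by 1 cell line, so a difference between the lines cannot be told apart from a difference between the mutations.

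Vitamin D is turned into its active hormone, calcitriol, by hydroxylation, and CYP27B1 carries out the last, activating step. Calcitriol binds the vitamin D receptor VDR, which pairs with a retinoid X receptor such as RXRA and binds response elements near its target genes. CYP24A1, the enzyme that degrades calcitriol and its precursor, is the best known of these targets, so the hormone induces its own removal. In epithelial tumors CYP24A1 is often highly expressed and CYP27B1 can be made outside the kidney.

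Values are normalized counts, that is gene counts divided by a size factor of the library. Dividing out that factor gave back whole reads, 25683055 to 43855907 per library, and 3 reads, taken as the floor of detection, were worth 2.34 to 4.01 normalized counts. Of 8 genes that mark thyroid follicular cells, 3 had a mean of at least 10 normalized counts in 8505c cells and 5 in CAL62 cells. TG, SLC5A5, FOXE1 and TSHR were among those under 10 in every 8505c library, and NKX2-1 and TSHR in every CAL62 library. The summed level of 5 mesenchymal genes was 843722 to 1044250 in CAL62 cells with U0126 and 72703 to 173991 in the other CAL62 libraries. That of 5 epithelial genes was 109103 to 129728 in 8505c cells with U0126 and 46959 to 68720 in the other 8505c libraries. With 10 µM DEL-22379 the mesenchymal sum in 8505c cells was 91650 to 109220, against 165138 to 181962 with DMSO, and the epithelial sum in CAL62 cells was 22899 to 28085, against 37034 to 39828. The sum of 4 endothelial genes in 8505c cells was 1572 to 2412 with 1 µM DEL-22379, against 518.5 to 876.7 with DMSO. The part of these shifts in the results was not tested. As a check of the treatments, DUSP6 and SPRY4, feedback inhibitors that ERK switches on, fell with U0126 to 6.32% and 6.42% of their DMSO means in 8505c cells and to 8.93% and 7.53% in CAL62 cells. With 10 µM DEL-22379, SPRY4 fell by 1.49 on the log2 scale in 8505c cells and rose by 1.46 in CAL62 cells (limma, adjusted p = 0.0033 and 0.00101). The DUSP6 values with DEL-22379 are not reported here. CAL62 libraries with the same replicate number deviated together, so values with replicates paired are given for that line where they change a member's call or move a list's count by over 1.5 times.

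The genes lie on 3 chromosomes. In GENCODE 29 on GRCh38, CYP24A1 (ENSG00000019186.10) is on chromosome 20 from 54153449 to 54173973 on the minus strand, VDR (ENSG00000111424.12) on chromosome 12 from 47841537 to 47943048 on the minus strand, CYP27B1 (ENSG00000111012.10) on chromosome 12 from 57762334 to 57768986 on the minus strand, and RXRA (ENSG00000186350.12) on chromosome 9 from 134317098 to 134440585 on the plus strand. CYP27B1 shares exon sequence on the same strand with METTL1, a tRNA methyltransferase gene, and reads from the shared bases could have been given to either. VDR overlaps antisense transcripts with at most 4.06 normalized counts in any library. The promoter is shown for RXRA, the 1 member found in the promoter table used here (RefSeq, GRCh38.p14), which gave 2 start sites for it. The 250 bases before the first one, at chr9:134326205-134326454 on the plus strand, are 89.2% G or C, and capitals mark the GC boxes (GGGCGG), a motif bound by SP1:

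RXRA: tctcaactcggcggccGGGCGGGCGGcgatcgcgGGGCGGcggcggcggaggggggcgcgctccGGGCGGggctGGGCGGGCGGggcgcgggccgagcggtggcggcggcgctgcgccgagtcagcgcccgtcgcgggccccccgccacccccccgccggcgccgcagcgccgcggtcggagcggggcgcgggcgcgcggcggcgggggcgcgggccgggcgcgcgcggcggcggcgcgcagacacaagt

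The window holds 6 GC boxes on the printed strand, some of them overlapping, and 0 on the other, and a GC box on either strand was found in 42.6% of 35116 promoters of the same length. The ETS core GGAA and the AP-1 motif TGANTCA, searched on both strands with overlaps counted, were not among its letters, while they were in 92.7% and 6.57% of promoters. The window before the other start site, which begins at 134379045, is 64.4% G or C and holds 1 GC box, GGAA on each strand and 0 matches to the AP-1 motif.

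CYP24A1 had the highest level of the 4 members in 8505c cells with DMSO, and its level was lower at each dose of DEL-22379. Its normalized counts were 3985 and 3464 with DMSO, 1276 and 1164 with 1 µM DEL-22379, 496 and 500 with 10 µM DEL-22379 and 4905 and 5555 with U0126. The 4 groups did not overlap, with the lowest values at 10 µM DEL-22379 and the highest with U0126. The group means were 3725 ± 368, 1220 ± 79.0, 498 ± 2.83 and 5230 ± 459.3 (SD, n = 2). Relative to DMSO, CYP24A1 was at 32.7% with 1 µM and at 13.4% with 10 µM DEL-22379, log2 differences of -1.61 and -2.90. Of the decrease in normalized counts between DMSO and 10 µM, 77.6% was present at 1 µM. With U0126 the level was 0.49 higher on the log2 scale than with DMSO, and 10.5-fold that with 10 µM DEL-22379. These means rest on 6706, 2569, 1038 and 12693 reads. At 10 µM DEL-22379 the libraries held 422 and 616 reads, and their spread was smaller than counting error alone would give. In RNA of whole cultures, fewer cells that express a gene and less RNA per cell cannot be told apart. The log2 difference at 10 µM was between -3.00 and -2.80 when each library was left out in turn. This range describes the values by which CYP24A1 was chosen and is no support for the decrease.

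**Figure D1:**
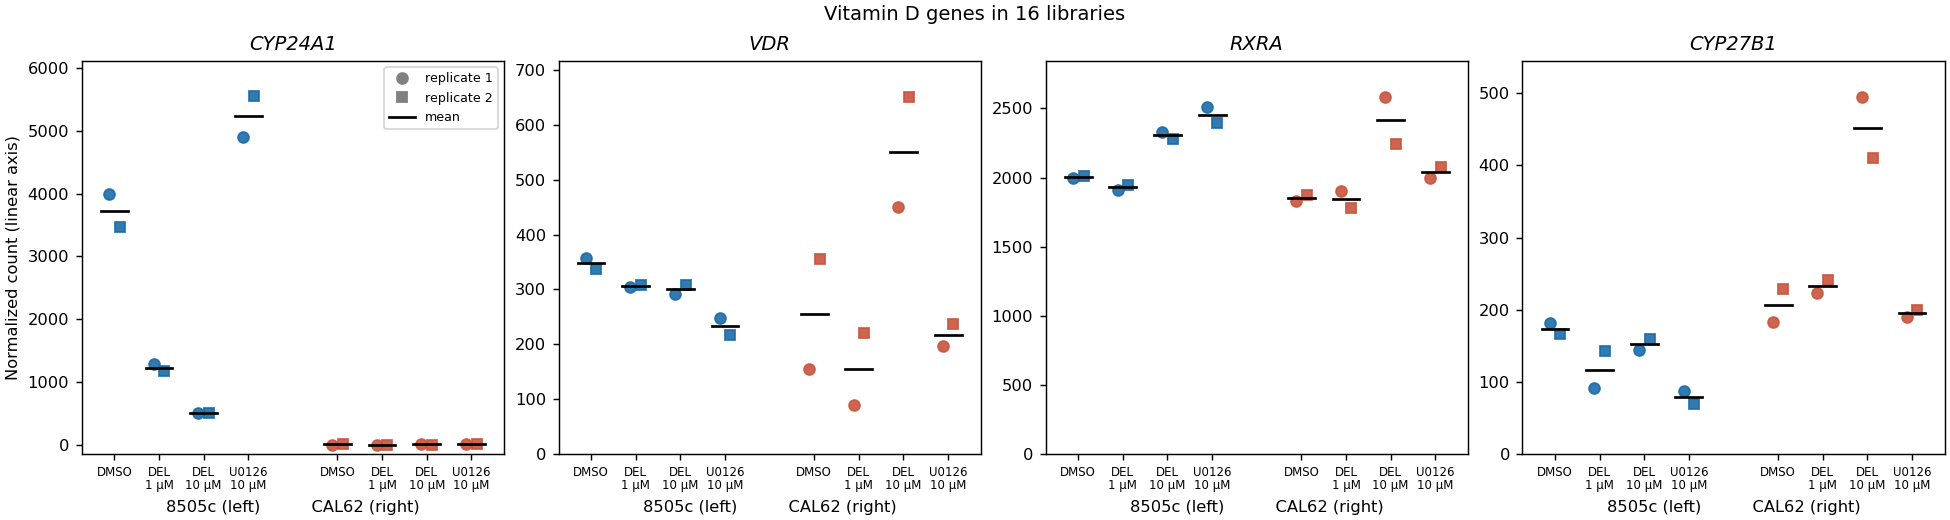
Normalized counts (linear axis) of CYP24A1, VDR, RXRA and CYP27B1 in each of the 16 libraries, with circles for replicate 1, squares for replicate 2 and a line at the group mean. CYP24A1 steps down from a mean of 3725 to 1220 and 498 with DEL-22379 in 8505c cells and is near 0 in all CAL62 libraries.

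In CAL62 cells CYP24A1 was at or under 3 reads in every library. The libraries held 0 and 1 reads with DMSO, 0 and 0 with 1 µM DEL-22379, 2 and 0 with 10 µM DEL-22379, and 3 and 3 with U0126. The 6 reads with U0126 came from 71882690 reads in all, with an exact Poisson 95% interval of 2.20 to 13.1 reads that covers counting error only. No fold change between treatments is given at this depth, since all groups were at or under the floor. At 1 µM DEL-22379, where both CAL62 libraries had 0 reads, the mean level in 8505c cells was 424.5-fold the mean CAL62 floor of 3 reads per library. CYP24A1 therefore passed the filter on low counts only through 8505c cells, and no difference between the lines was tested for it.

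Per kilobase of exon, the balance of the 4 transcripts in 8505c cells differed between the treatments. With DMSO, CYP24A1 had 937.7 normalized counts per kilobase, RXRA 180.9, VDR 61.3 and CYP27B1 50.5. The ratio of CYP24A1 to VDR per kilobase was 15.3 with DMSO, 5.69 with 1 µM and 2.37 with 10 µM DEL-22379, and 32.1 with U0126. The ratio of CYP24A1, which degrades calcitriol, to CYP27B1, which makes it, was 18.6, 9.04 and 2.84 across the same 3 steps and 57.8 with U0126. The ratios with U0126 also reflect lower VDR and CYP27B1. CYP24A1 was then at 140.4% of its DMSO mean, VDR at 66.8% and CYP27B1 at 45.1%. At 10 µM DEL-22379 RXRA, with 208 counts per kilobase, was above CYP24A1, with 125.4. These ratios are descriptions, since they contain CYP24A1.

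The genes with the profile most like that of CYP24A1 were named by the root mean square difference of log2 values over the 8 libraries of 8505c cells, after each profile was centred on its mean. The nearest of 11592 other protein-coding genes whose mean reached 50 normalized counts were EPGN (0.30), TMEM40 (0.35), CRYBG1 (0.50), GBP3 (0.50) and SAMD9 (0.52), against a median of 1.35. EPGN encodes epigen, a ligand of the EGF receptor. Its normalized counts were 209.7 and 245.1 with DMSO, 80.4 and 93.1 with 1 µM and 20.0 and 34.1 with 10 µM DEL-22379, and 247.1 and 276.8 with U0126. TMEM40, a membrane protein gene, had 878.6 and 932.8, 369.9 and 342.9, 248 and 194.8, and 1772 and 2168 in the same order. In CAL62 cells EPGN and TMEM40 had at most 11.4 and 6.46 normalized counts in any library. The other 3 were expressed there, with DMSO values of 99.0 and 114.5 for CRYBG1, 278.4 and 335.1 for GBP3 and 330.6 and 464.3 for SAMD9. With 10 µM DEL-22379 in CAL62 cells they were lower too, with 16.6 and 17.5, 70.2 and 43.3, and 99.6 and 31.0. With U0126 there they had 39.9 and 50.9, 396.8 and 392.2, and 765.4 and 910.2. As background, 1012 of 11593 coding genes in 8505c cells (8.73%) were lower at each dose with no overlap between the groups, and 119 (1.03%) were so and were also higher with U0126 than with DMSO. CYP24A1 is among these by the way it was chosen.

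**Figure D2:**
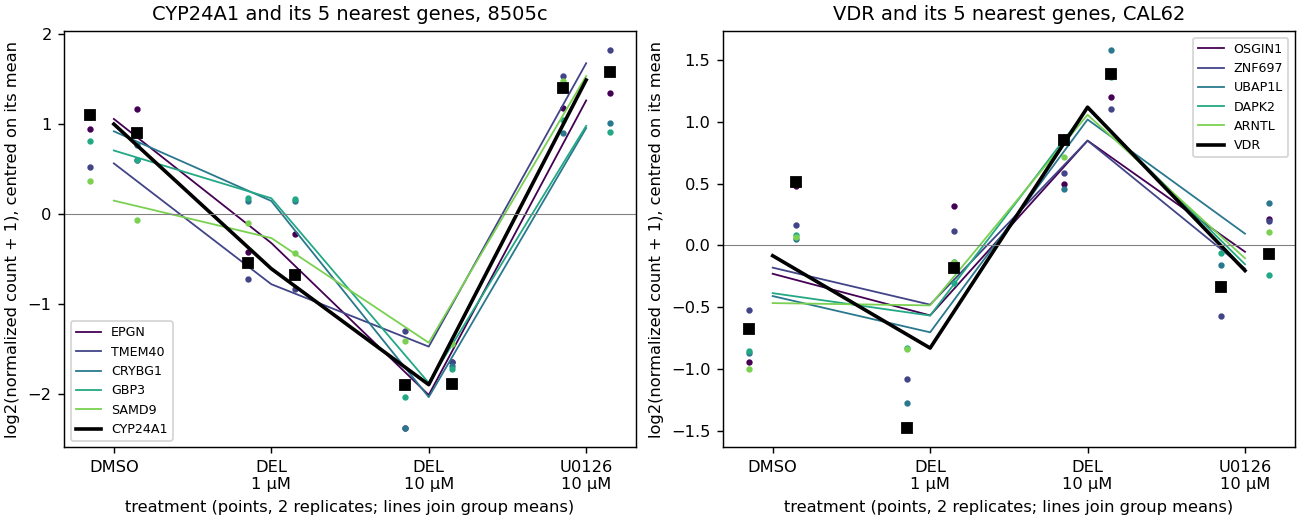
Log2 (normalized count + 1), each gene centred on its mean over 8 libraries, for CYP24A1 and its 5 nearest genes in 8505c cells (left) and VDR and its 5 nearest genes in CAL62 cells (right), with points for replicates and lines that join group means. CYP24A1, EPGN and TMEM40 descend from DMSO to 10 µM DEL-22379 and are highest with U0126, while VDR in CAL62 cells peaks at 10 µM DEL-22379.

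VDR, RXRA and CYP27B1 were tested with limma in a model of all 16 libraries, with p-values adjusted over 19127 genes (Benjamini-Hochberg, two-sided) and a call at an adjusted p under 0.05. In 8505c cells, 0 of these 3 members were called with 1 µM DEL-22379, where 0.0157% of all genes were called and 1 member had an unadjusted p under 0.05. With 10 µM DEL-22379, 0 were called, where 13.6% of all genes were called and 0 members had an unadjusted p under 0.05. With U0126, 1 was called, against 12.7% of all genes. In CAL62 cells, 0 were called with 1 µM DEL-22379, against 0% of all genes, with 0 members at an unadjusted p under 0.05. With 10 µM DEL-22379 all 3 were called, all higher, against 33.9% of all genes in both directions and 17.1% higher. With U0126, 0 were called, against 29.2% of all genes, and 0 members had an unadjusted p under 0.05. On the recovered reads edgeR called none of the 3 where limma called none, and DESeq2 called RXRA in 8505c cells with U0126.

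VDR, the receptor itself, was higher in CAL62 cells with 10 µM DEL-22379 and showed no change past the test in 8505c cells. Its normalized counts in 8505c cells were 357.8 and 337.9 with DMSO, 303.6 and 308.9 with 1 µM and 291.5 and 308.4 with 10 µM DEL-22379, and 247.9 and 217 with U0126. The DMSO libraries were above those of every treatment, while the groups with the 2 doses of DEL-22379 overlapped. The log2 fold changes were -0.18 with 1 µM (95% interval -1.05 to 0.68), -0.21 with 10 µM (-1.08 to 0.65; adjusted p = 0.767) and -0.58 with U0126 (-1.45 to 0.28; adjusted p = 0.383). With 10 µM DEL-22379 in these cells the VDR mean was at 86.2% of its DMSO level and CYP24A1 at 13.4%. A link between them was not tested. In CAL62 cells VDR had 155.2 and 355.4 with DMSO, 88.6 and 219.6 with 1 µM and 450.5 and 651.2 with 10 µM DEL-22379, and 196.6 and 237.6 with U0126. Both libraries at 10 µM were above all others, and replicate 1 was below replicate 2 in all 4 groups. The gap between replicates was 1.19 on the log2 scale with DMSO and 1.30 with 1 µM DEL-22379, against a median gap over all genes of 0.316 and 0.303. VDR rose with 10 µM DEL-22379 by 1.20 on the log2 scale (SE 0.40, adjusted p = 0.0343, and 0.00116 with replicates paired), while it differed by -0.75 with 1 µM (-1.61 to 0.12, and between -1.40 and -0.097 with a library left out) and by -0.12 with U0126 (-0.98 to 0.74). The rise was 0.61 to 1.80 when each library was left out, and its adjusted p was above 0.05 without CAL62 DMSO replicate 1 or CAL62 DEL-22379 10 µM replicate 2. It was also above 0.05 with edgeR (adjusted p = 0.0545), with scaling to equal totals (0.0570) and with CAL62 libraries alone (0.114). The 5 genes with profiles nearest to VDR in CAL62 cells were OSGIN1 (0.26), ZNF697, UBAP1L, DAPK2 and ARNTL (0.31), with a median of 0.92 over 11724 genes. In 8505c cells, where VDR varied little, they were LRRC20, ACVR2B, TRIB3, TRIM27 and CSGALNACT2 (0.062 to 0.067, median 0.30).

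RXRA, the partner of VDR on DNA, was expressed at nearly the same level in both lines and moved by less than 1.5-fold in every comparison. In 8505c cells it had 1996 and 2013 normalized counts with DMSO, 1911 and 1949 with 1 µM and 2331 and 2279 with 10 µM DEL-22379, and 2512 and 2396 with U0126. In CAL62 cells it had 1832 and 1875 with DMSO, 1905 and 1777 with 1 µM, 2585 and 2246 with 10 µM DEL-22379 and 2000 and 2073 with U0126. In each line both DMSO libraries were below all 4 that had 10 µM of either inhibitor. RXRA rose in CAL62 cells with 10 µM DEL-22379 by 0.38 on the log2 scale (SE 0.095, adjusted p = 0.00884, and 0.0037 with replicates paired). That call was lost without CAL62 DMSO replicate 1 or CAL62 DEL-22379 10 µM replicate 1 and with CAL62 libraries alone (adjusted p = 0.0585). In 8505c cells the differences were 0.20 with 10 µM DEL-22379 (adjusted p = 0.177) and 0.29 with U0126 (adjusted p = 0.0645), the latter called by DESeq2 (adjusted p = 0.0204). At 1 µM DEL-22379 the differences were -0.06 in 8505c cells and -0.01 in CAL62 cells, and the latter changed sign under scaling to equal totals, to 0.017.

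CYP27B1, the activating enzyme, fell with U0126 in 8505c cells and rose with 10 µM DEL-22379 in CAL62 cells. In 8505c cells its normalized counts were 181.2 and 166.3 with DMSO, 91.5 and 142.3 with 1 µM and 144.6 and 159.1 with 10 µM DEL-22379, and 87.3 and 69.4 with U0126. The U0126 libraries were the lowest of the 8. The log2 fold change with U0126 was -1.15 (SE 0.23, adjusted p = 0.00739), and the call was lost without 8505c DMSO replicate 1 or 8505c U0126 10 µM replicate 2 (highest adjusted p = 0.0839). With 1 µM DEL-22379 it was -0.60, with an unadjusted p of 0.0231 that did not survive the adjustment, and with 10 µM it was -0.19 (adjusted p = 0.621). In CAL62 cells CYP27B1 had 183.3 and 228.9 with DMSO, 223.8 and 241.4 with 1 µM, 495.2 and 409.7 with 10 µM DEL-22379 and 190.2 and 200.1 with U0126. Only the libraries with 10 µM DEL-22379 stood above 300 counts. The rise at 10 µM was 1.13 on the log2 scale (SE 0.23, adjusted p = 0.00275), a 95% interval of 0.63 to 1.64, and it was called in all 16 fits with a library left out and in all 9 other settings. With U0126 the difference was -0.07 (-0.57 to 0.43). METTL1, which shares exon sequence with CYP27B1 and was looked at after these values were seen, had 501.9 and 399.7 counts with DMSO and 417.4 and 316.8 with 10 µM DEL-22379 in CAL62 cells, a log2 difference of -0.30 (adjusted p = 0.342). In 8505c cells with U0126 METTL1 differed by -0.48 (adjusted p = 0.194).

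**Figure D3:**
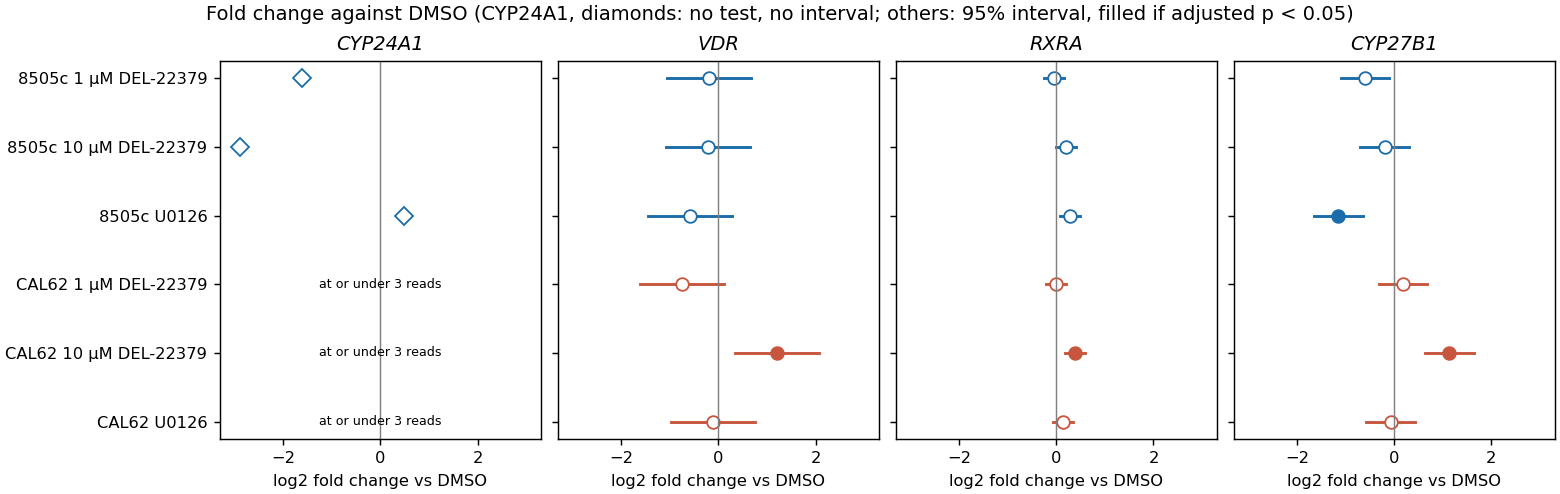
Log2 fold change against DMSO of the 4 members in the 6 comparisons, with 95% intervals from limma for VDR, RXRA and CYP27B1, filled circles at an adjusted p under 0.05 and diamonds without interval for CYP24A1, which was not tested. The 3 tested members lie to the right of 0 with 10 µM DEL-22379 in CAL62 cells (1.20, 0.38 and 1.13), and CYP27B1 lies at -1.15 with U0126 in 8505c cells.

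The response of CYP27B1 to 10 µM DEL-22379 differed between the lines. The response in CAL62 cells minus that in 8505c cells was 1.33 on the log2 scale (SE 0.33, adjusted p = 0.02), in a comparison where 14.4% of all genes were called. It was no longer called without 8505c DMSO replicate 1, 8505c DEL-22379 10 µM replicate 1 or CAL62 DMSO replicate 1 (adjusted p up to 0.0677), or with scaling to equal totals (1.13, adjusted p = 0.0506), a scaling that moved the median of all genes in this comparison to -0.22. For VDR the difference was 1.41 (SE 0.56, adjusted p = 0.113, and 0.00789 with replicates paired), and for RXRA 0.18 (adjusted p = 0.402), which became -0.024 with scaling to equal totals. With U0126 the difference was 1.08 for CYP27B1 (adjusted p = 0.0809), 0.46 for VDR and -0.16 for RXRA, where 5.69% of all genes were called. At 1 µM limma called 0 genes, and the difference for CYP27B1 was 0.78, with an unadjusted p under 0.05 that did not survive the adjustment; DESeq2 called 3 genes, none of them a member. With DMSO alone, where 53% of all genes differed between the lines, VDR was lower in CAL62 cells by 0.56 (adjusted p = 0.254, and 0.0469 with replicates paired), and it changed sign without CAL62 DMSO replicate 1. RXRA differed by -0.11 (adjusted p = 0.337), which became 0.010 with scaling to equal totals, and CYP27B1 by 0.24 (adjusted p = 0.412).

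The 2 inhibitors at the same dose, and the 2 doses of DEL-22379, were also compared directly. In CAL62 cells all 3 members were higher with 10 than with 1 µM DEL-22379, by 1.95 for VDR (adjusted p = 0.00302), 0.39 for RXRA (adjusted p = 0.00825) and 0.95 for CYP27B1 (adjusted p = 0.00813), where 32.1% of all genes were called and 16.3% were higher. In 8505c cells 0 of 3 were called, against 7.8% of all genes, and RXRA, with a difference of 0.26, had an unadjusted p under 0.05. The CYP24A1 means there differed by 2.45-fold. With U0126 against 10 µM DEL-22379, CAL62 cells had lower VDR by 1.32 (adjusted p = 0.0172) and lower CYP27B1 by 1.20 (adjusted p = 0.00116), where 43.1% of all genes were called. RXRA differed by -0.24 (adjusted p = 0.0559, and 0.0317 with replicates paired). In 8505c cells CYP27B1 was lower with U0126 than with 10 µM DEL-22379 by 0.95 (adjusted p = 0.0236), where 9.94% of all genes were called, and this call was lost without any one of the 4 libraries compared (adjusted p up to 0.177). Of the calls in CAL62 cells, that of VDR against U0126 was lost without CAL62 U0126 10 µM replicate 1 or CAL62 DEL-22379 10 µM replicate 2. Those against 1 µM were lost for RXRA without CAL62 DEL-22379 10 µM replicate 1 and for CYP27B1 without CAL62 DEL-22379 1 µM replicate 1.

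The rest of the pathway was read from 5 lists with 87 genes, of which 67 passed the filter. Over all lists, 10 rose and 6 fell with 10 µM DEL-22379 in 8505c cells, 9 and 8 with U0126, 31 and 5 with 10 µM DEL-22379 in CAL62 cells and 13 and 11 with U0126. With 1 µM DEL-22379 limma, edgeR and DESeq2 called 0 of the 67 in either line, and 3 genes in 8505c and 1 in CAL62 cells had an unadjusted p under 0.05. With replicates paired, the counts in CAL62 cells were 35 and 7 with 10 µM DEL-22379 and 18 and 13 with U0126. In that paired fit 43.9% of all genes were called with 10 µM DEL-22379 and 40% with U0126, both directions together. Without pairing, 7.07% of all genes rose and 6.57% fell with 10 µM DEL-22379 in 8505c cells, and 6.8% and 5.87% with U0126. In CAL62 cells the shares were 17.1% and 16.8% with 10 µM DEL-22379 and 14.1% and 15.1% with U0126. Every comparison with DMSO in a line shares the same 2 DMSO libraries.

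Among 14 genes of vitamin D metabolism and transport, 9 were tested. DHCR7, which turns the skin precursor of vitamin D into cholesterol, rose with 10 µM DEL-22379 by 1.12 in 8505c cells (adjusted p = 0.033) and by 0.97 in CAL62 cells (adjusted p = 0.029). With U0126 it rose by 1.12 in 8505c cells (adjusted p = 0.0331) and fell by 0.89 in CAL62 cells (adjusted p = 0.0477). FDXR, a reductase that feeds electrons to the mitochondrial enzymes CYP24A1 and CYP27B1, rose with U0126 in 8505c cells by 0.71. CUBN, a receptor in the uptake of vitamin D with its binding protein, fell there with 10 µM DEL-22379, from 126.3 and 141.3 to 34.1 and 40.6 normalized counts. In CAL62 cells with 10 µM DEL-22379, POR, the electron donor of the microsomal enzymes, rose by 0.85 (adjusted p = 0.00171), CYP2R1, the main 25-hydroxylase, rose by 0.55, and FDX1, the ferredoxin of the mitochondrial enzymes, fell by 0.56. CYP27A1, another 25-hydroxylase, had 175.3 and 260.3 counts with DMSO, 91.9 and 103.2 with 10 µM DEL-22379 and 491.3 and 505.5 with U0126 in CAL62 cells, and 0 of these differences from DMSO were called (adjusted p = 0.11 at 10 µM DEL-22379 and 0.0932 with U0126). It had at most 9.55 counts in 8505c cells. The list's median log2 fold change was 0.24 in CAL62 cells with 10 µM DEL-22379 and 0.19 in 8505c cells, against 0 and 0.01 over all genes. The medians with U0126 were -0.13 in each line. With U0126 in CAL62 cells, 1 gene of this list was called, against 29.2% of all genes, and 2 with replicates paired, against 40%.

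Of 15 receptor partners and coregulators, 14 were tested. In 8505c cells 0 were called with 10 µM DEL-22379, against 13.6% of all genes. The coactivators NCOA1 and NCOA2 rose with U0126 in 8505c cells by 0.57 and 0.41, and in CAL62 cells by 1.02 and 0.63. NCOA1 had 570 and 660.9 normalized counts with DMSO and 913.8 and 914.5 with U0126 in 8505c cells, and 713.3 and 803.1 against 1455 and 1618 in CAL62 cells. In CAL62 cells with U0126, NCOA3, NCOA6 and RXRB, another retinoid X receptor, also rose, and BAZ1B, a chromatin remodeler, fell. With 10 µM DEL-22379 in CAL62 cells 6 of 14 rose and SMARCA4, the ATPase of a chromatin remodeling complex, fell. Of all genes, 17.1% rose and 16.8% fell there. The acetyltransferases EP300 and CREBBP rose by 1.51 (adjusted p = 9.5e-05) and 1.04 (adjusted p = 1.93e-04), and NCOA6 and NCOA3 by 0.56 and 0.85. MED1, the Mediator subunit that binds VDR, rose by 0.41. EP300, CREBBP, NCOA6, NCOA3 and MED1 also differed in their response between the lines (CAL62 minus 8505c) past the test. The list's median in CAL62 cells was 0.18 at 10 µM DEL-22379 and 0.31 for U0126, while the 8505c values were -0.064 and 0.05.

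Among 13 other nuclear receptors that pair with RXR, 11 were tested. RARG, a retinoic acid receptor, rose in all 4 comparisons at 10 µM, by 1.31 and 2.18 with DEL-22379 and U0126 in 8505c cells and by 0.79 and 1.20 in CAL62 cells. Its counts in 8505c cells went from 191.4 and 241.8 with DMSO to 508.9 and 565.3 with 10 µM DEL-22379 and 899.7 and 1063 with U0126, without overlap. PPARA, a fatty acid receptor, rose with 10 µM DEL-22379 by 1.87 in 8505c cells and 2.06 in CAL62 cells, and with U0126 in CAL62 cells by 1.36. In 8505c cells the oxysterol receptor NR1H3 and the thyroid hormone receptor THRA also rose with 10 µM DEL-22379, by 1.39 and 0.45. With U0126 RARB rose there by 2.06 and PPARG fell by 0.92. In CAL62 cells with 10 µM DEL-22379, 5 rose and PPARG fell, by 1.07 (adjusted p = 0.00548). Of all genes, 17.1% rose and 16.8% fell there. PPARD and NR1H2 rose by 0.78 and 0.44, and RARA by 0.73 (adjusted p = 0.0495). THRB, the other thyroid hormone receptor, rose with U0126 in CAL62 cells from 0.92 and 1.34 normalized counts, 1 read in each library, to 30.8 and 33.9. The list's medians were 0.03 and 0.36 with 10 µM DEL-22379 and U0126 in 8505c cells, and 0.27 and 0.13 in CAL62 cells.

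Of 30 known VDR targets other than CYP24A1, 18 were tested. The order of groups seen for CYP24A1 in 8505c cells was found in 0 of them, and in 1.03% of the coding genes above. The filter removed the classical targets of gut and kidney (TRPV5, TRPV6 and S100G) and the innate immune targets CAMP and DEFB4A. With 10 µM DEL-22379 in 8505c cells 4 rose and G0S2 fell, where 7.07% of all genes rose and 6.57% fell. LRP5, a Wnt coreceptor, rose by 0.56, ATP2B1, a calcium pump, by 0.59, NINJ1 by 0.61 and SEMA3B, a secreted semaphorin, by 1.82 (adjusted p = 0.0291). G0S2, an inhibitor of lipolysis, had 467.5 and 745.3 counts with DMSO, 262.3 and 362.9 with 1 µM, 95 and 150.4 with 10 µM DEL-22379 and 10.4 and 29.6 with U0126. It thus shared the descent of CYP24A1 with DEL-22379 but was lowest with U0126, at -4.98 on the log2 scale (adjusted p = 8.4e-05), and at -5.16 in CAL62 cells with U0126. THBD, thrombomodulin, fell with U0126 in both lines, by 0.99 and 2.16, and SEMA3B rose in both, by 2.89 and 2.58. CLDN12 fell and NINJ1 rose with U0126 in 8505c cells. In CAL62 cells with U0126 ATP2B1, LRP5 and SLC37A2 also fell, and IGFBP3, a binding protein of insulin-like growth factors, rose from 13.4 and 324 counts to between 2072 and 2498. In CAL62 cells with 10 µM DEL-22379, CDKN1A, the cell cycle inhibitor p21, rose by 4.27 (adjusted p = 4.94e-04), from 247.6 and 731.1 to 6087 and 11186 counts. CALB1, calbindin, went from 0 and 1.34 to 12.8 and 37.2 normalized counts and was called, and SEMA3B rose by 1.87, while TXNIP and LRP5 fell by 2.12 and 0.48. The list's medians were 0.20 and 0.12 with 10 µM DEL-22379 and U0126 in 8505c cells, and 0.14 and -0.34 in CAL62 cells, against 0.01, 0.02, 0 and 0.05 over all genes.

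**Figure D4:**
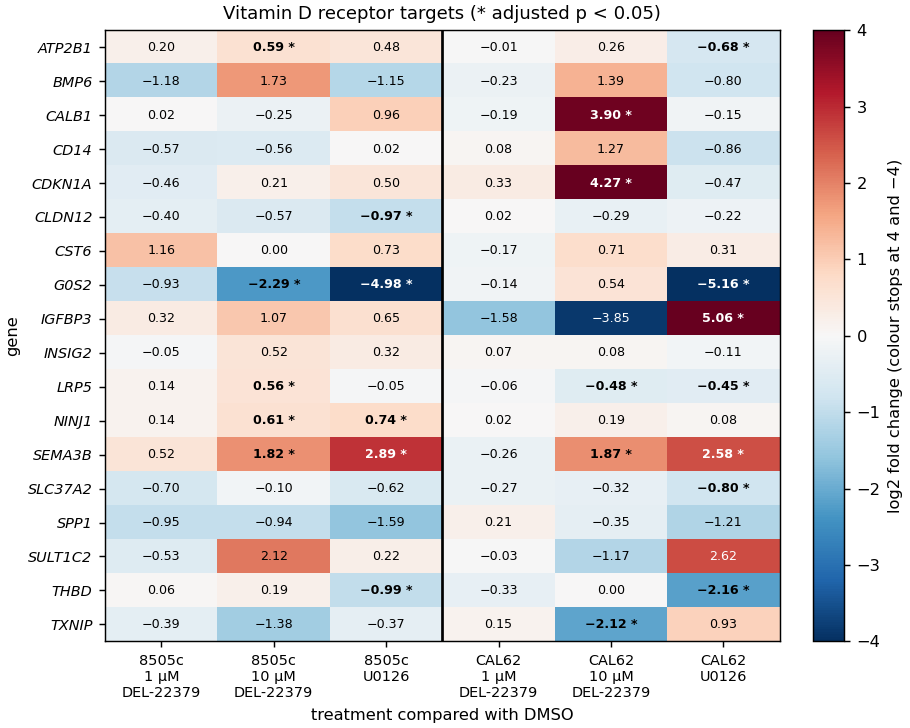
Log2 fold change against DMSO (colour and printed value) of the 18 VDR targets tested, by comparison, with stars at an adjusted p under 0.05. SEMA3B is higher in both lines at 10 µM of either inhibitor, G0S2 stands at -4.98 and -5.16 with U0126, and CDKN1A at 4.27 with 10 µM DEL-22379 in CAL62 cells. The values of CALB1 in CAL62 cells depend on the pseudocount, since its DMSO libraries held 0 and 1 reads.

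The transcription factors known to act on the CYP24A1 or VDR genes were all 15 tested, and with 10 µM DEL-22379 most rose in CAL62 cells while more fell than rose in 8505c cells. In CAL62 cells 14 rose and 0 fell, with a median of 1.32 against 0 over all genes, and 14 is to be read beside 33.9% of all genes called. In 8505c cells 1 rose and 4 fell, with a median of -0.09, where 7.07% of all genes rose and 6.57% fell. FOS, a subunit of AP-1, had 453.7 and 798.5 counts with DMSO in CAL62 cells and 25799 and 104625 with 10 µM DEL-22379, a rise of 6.43 (adjusted p = 3.79e-05). SNAI1, a repressor of VDR, rose by 5.76 (adjusted p = 2.67e-05), from 145.9 and 231.7 to 4559 and 22120 counts with 10 µM DEL-22379. The FOS and SNAI1 libraries at this dose were far above all others, though the 2 replicates differed by over 4-fold. KLF4 and JUNB rose by 2.94 and 3.61, and SNAI2, another repressor of VDR, by 2.71. ZEB1, which has been reported to activate VDR, rose by 0.85, and SP1, by 0.31. In CAL62 cells the VDR transcript and its repressors SNAI1 and SNAI2 were higher at the same dose, and a link between them was not tested. In 8505c cells with 10 µM DEL-22379 FOSL1, an AP-1 subunit, fell by 2.04 (adjusted p = 7.16e-04), from 12043 and 13302 to 2963 and 3179 counts, and JUN fell by 1.42, from 6920 and 6957 to 2581 and 2601. ETS1, which acts on the CYP24A1 promoter, fell by 1.06, from 10725 and 11496 to 5173 and 5501, and ZEB1 by 0.82, while JUND rose by 1.21. With U0126 FOSL1 fell by 2.32, ETS1 by 0.90, ZEB1 by 0.73 and KLF4 by 1.72 in 8505c cells, and JUND rose by 2.03. JUN had 5100 to 5302 counts with U0126 against 2581 to 2601 with 10 µM DEL-22379 in 8505c cells. It was called between these groups, as were FOS and KLF4, which were lower with U0126. These are 3 of the 15 factors, in a comparison where 9.94% of all genes were called. A link between any of the factors and CYP24A1 was not tested. In CAL62 cells with U0126 FOSL1 fell by 3.15, FOS fell by 2.73, KLF4 fell by 1.37 and JUN fell by 0.88, while SP1, JUND and SNAI2 rose. The response to 10 µM DEL-22379 differed between the lines for 11 of the 15, all higher in CAL62 cells, where 7.21% of all genes were called higher.

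**Figure D5:**
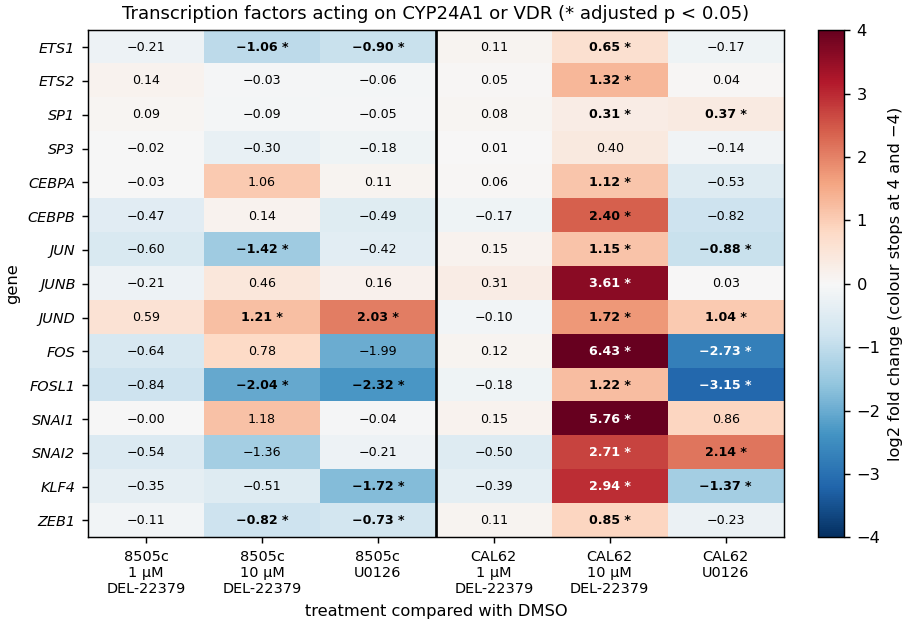
Log2 fold change against DMSO (colour and printed value) of the 15 transcription factors known to act on CYP24A1 or VDR, by comparison, with stars at an adjusted p under 0.05. The column of 10 µM DEL-22379 in CAL62 cells holds 14 stars, all higher, while FOSL1, JUN, ETS1 and ZEB1 are lower with 10 µM DEL-22379 in 8505c cells.

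Of the list genes called, those that kept their call when each library was left out numbered 5 of 16 with 10 µM DEL-22379 in 8505c cells (FOSL1, JUN, ETS1, ZEB1 and RARG) and 8 of 17 with U0126 (FOSL1, ETS1, JUND, KLF4, THBD, G0S2, RARG and SEMA3B). In CAL62 cells they numbered 23 of 36 with 10 µM DEL-22379, among them FOS, SNAI1, JUNB, KLF4, ZEB1, CDKN1A, CALB1, EP300, CREBBP, NCOA3, NCOA6, POR, PPARA, PPARD, PPARG and NR1H2, and 11 of 24 with U0126, which were FOSL1, JUN, THBD, G0S2, NCOA1, NCOA2, NCOA3, RXRB, RARG, THRB and SEMA3B. The remaining list genes called in each of these comparisons, DHCR7, LRP5 and NINJ1 among them, lost their call without at least 1 library. For list genes the calls between lines and between inhibitors were not run with a library left out. The number called in 8505c cells ranged from 7 to 19 with 10 µM DEL-22379, with the lowest values without one of the libraries compared.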

How the data were processed

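RNA of 8505c and CAL62 cells was sequenced from 16 libraries, 2 biological replicates per group per the labels. The signal values deposited by the authors are gene counts that each library's size factor had scaled, kept to 2 decimals, on genome build GRCh38. The aligner, the counter and the annotation: not given in the sources used here. Whole reads were recovered within 0.02 reads for 100% of values under 200. Coordinates come from GENCODE 29 by unversioned gene ID (58497 of 60715 genes matched), so gene models may differ from those counted. The test used 19127 genes that reached 10 normalized counts in 2 or more libraries. Values were put on the log2 scale after adding 1, which understates changes of low genes, and modelled with limma 3.58.1 under R 4.3.3 (8 group means, 14 contrasts, trended and robust, Benjamini-Hochberg over all genes). The model was also run on simulated data with independent libraries and large changes. That run does not cover small changes or the linked CAL62 replicates. The alternatives were edgeR 4.0.16 and DESeq2 1.42.0 on recovered reads, other scalings, pseudocounts and filters, 1 cell line alone, a replicate block and leaving out each library. Members and lists were chosen with earlier results of these data known. Per list and comparison, up to 4 called genes with the smallest p were named, and all where 5 or fewer were called; other names were chosen after their values were seen. Libraries that share a replicate number had deviations from the mean of their group that correlated at 0.22 to 0.504 in all 6 pairs of CAL62 groups, taken as paired, and at 0.0876 to 0.122 in 8505c cells, taken as sharing only a number. Some items counted in the lists are not reported here by name.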

Additional observations from a re-analysis of the deposited data

Results flagged for a closer look

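Each gene here had a different response in CAL62 and 8505c cells (CAL62 minus 8505c, limma). The test of that difference was past an adjusted p of 0.05. For CYP27B1 with 10 µM DEL-22379 the difference was 1.33 on the log2 scale (adjusted p = 0.02), and both CAL62 libraries with the inhibitor were above both with DMSO while both 8505c libraries were below theirs. Of the list genes called in opposite directions in the lines at this dose, JUN differed by 2.57 (adjusted p = 3.12e-04), FOSL1 by 3.27 (adjusted p = 3.34e-04), ETS1 by 1.71 (adjusted p = 6.77e-04) and ZEB1 by 1.67 (adjusted p = 3.38e-04), higher in CAL62 cells. LRP5 differed by -1.04 (adjusted p = 0.00397), higher in 8505c cells. With U0126, DHCR7 differed by -2.01 (adjusted p = 0.0181), with a rise in 8505c and a fall in CAL62 cells.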

How the results depend on the processing

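The results on VDR, RXRA and CYP27B1 gave 366 values under other settings, of which 343 kept their direction and side of the threshold, and 672 with a library left out, of which 638 did. Of 11 calls on the members, 3 held throughout: VDR and CYP27B1 in CAL62 cells at 10 µM DEL-22379, against 1 µM and DMSO respectively, and CYP27B1 with U0126 against 10 µM DEL-22379. The cause of each change below was not tested. With only the libraries of the cell line, VDR in 8505c cells with U0126 was called (-0.58, adjusted p = 0.0129), as was RXRA with 10 against 1 µM DEL-22379 (0.26). The same setting lost the calls in CAL62 cells of VDR with 10 µM DEL-22379 (1.20), of RXRA at that dose against DMSO (0.38) and against 1 µM (0.39), and of VDR with U0126 against 10 µM DEL-22379 (-1.32). RXRA in 8505c cells with U0126 was called with quantile normalization (0.33), and at 0.29 with the replicate block, the cell line alone and DESeq2. Scaling to equal totals turned RXRA in CAL62 cells with 1 µM DEL-22379 to 0.017, VDR in 8505c cells with 10 against 1 µM to 0.077, the difference between lines of RXRA with 10 µM to -0.024 and with DMSO to 0.010. It lost the calls of VDR with 10 µM in CAL62 cells (1.14), of RXRA there against 1 µM (0.30) and of the difference between lines of CYP27B1 (1.13). edgeR lost VDR with 10 µM in CAL62 cells (1.05). DESeq2 called RXRA in CAL62 cells with U0126 against 10 µM (-0.24) and the U0126 difference between lines of CYP27B1 (1.06). With the replicate block, RXRA in CAL62 cells with U0126 against 10 µM (-0.24), the 10 µM difference between lines of VDR (1.41) and its DMSO difference (-0.56) were called. With RXRA in 8505c cells above, these were the calls on members that it changed. List genes called in 8505c cells went from 16 to 27 with the replicate block and 31 with the cell line alone at 10 µM DEL-22379, from 17 to 31 with the cell line alone with U0126, and from 0 to 2 with the cell line alone at 1 µM.

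With a library left out, list genes called ranged in 8505c cells from 7 to 19 at 10 µM DEL-22379 and from 9 to 21 for U0126, and in CAL62 cells from 13 to 27 for U0126. Against DMSO, RXRA in 8505c cells with U0126 ranged from 0.26 to 0.33 and CYP27B1 from -1.31 to -0.98. In CAL62 cells RXRA ranged from -0.061 to 0.040 with 1 µM and 0.28 to 0.48 with 10 µM DEL-22379, VDR from 0.61 to 1.80 with 10 µM and -0.71 to 0.47 with U0126, and CYP27B1 from -0.23 to 0.089 with U0126. Between doses, VDR in 8505c cells ranged from -0.071 to 0.011, and in CAL62 cells RXRA from 0.29 to 0.49 and CYP27B1 from 0.82 to 1.09. With U0126 against 10 µM DEL-22379, CYP27B1 in 8505c cells ranged from -1.12 to -0.79, VDR in CAL62 cells from -1.59 to -1.06 and RXRA from -0.34 to -0.14. The difference between lines ranged from -1.21 to 0.086 (VDR) and -0.0054 to 0.095 (RXRA) with 1 µM, from 0.82 to 2.01 (VDR) and 1.17 to 1.49 (CYP27B1) with 10 µM, from -0.13 to 1.06 (VDR) with U0126 and from -1.16 to 0.031 (VDR) with DMSO.

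Genes called over the whole table went from 2609 to 4989 with the replicate block and 5160 with the cell line alone at 10 µM DEL-22379 in 8505c cells, from 2423 to 4530 and 4757 with U0126, from 1491 to 3947 and 4211 (2598 with DESeq2) between doses, and from 1901 to 3898 and 4099 between inhibitors. At 1 µM in 8505c cells they went from 3 to 10 (pseudocount 5), 6 (no filter), 14 (block), 37 (cell line alone) and 44 (DESeq2), and in CAL62 cells from 0 to 1 (no filter) and 2 (DESeq2). In CAL62 cells alone they went from 5592 to 3365 with U0126 and from 6140 to 4022 between doses. The differences between lines went from 2752 to 5045 and from 1088 to 2447 with the block at 10 µM of each inhibitor, and from 0 to 3 with DESeq2 at 1 µM. With a library left out, these counts fell to as few as 565 (10 µM DEL-22379), 699 (U0126), 73 (between doses) and 408 (between inhibitors) in 8505c cells, and to 3967, 2283, 3566 and 6075 in CAL62 cells. The lowest count came each time without a library of the groups compared, so the shares of all genes called move with single libraries. At 1 µM they ranged from 0 to 6 in 8505c and from 0 to 16 in CAL62 cells, and the differences between lines from 1477 to 3383 with 10 µM DEL-22379 and from 499 to 1679 with U0126. Scaling to equal totals moved the median of all genes from 0.01 to 0.14 with 10 µM DEL-22379 in 8505c cells, and the share of calls that were higher from 51.9% to 71%. That share went from 52.6% to 70.5% between doses in 8505c cells, from 50.8% to 40.1% in CAL62 cells, from 54.2% to 38.7% between inhibitors in 8505c cells and from 50.1% to 26.8% for the 10 µM difference between lines.

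No alternative was run for CYP24A1 in CAL62 cells, which was at or under 3 reads, and no depth here can show a change there. With 2 replicates per group, a missed threshold does not show that values were alike.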
